A study of Mus musculus with 10 samples.

Results

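To examine how endothelial genes are marked in hepatocytes with and without Arid1a, 10 genes of the endothelial lineage were followed through 8 ChIP-seq peak lists. They were chosen by function out of 21938 protein-coding genes, with earlier results of these lists known. They comprise the junction and adhesion genes Cdh5 and Pecam1, the receptor genes Kdr, Flt1, Tek and Tie1, and the transcription factor genes Erg, Sox17, Sox18 and Gata2. Each gene was taken with its body and 20 kb on each side, and every summit inside that window was counted. The cells were AB17, a line of primary hepatocytes from a C57BL/6 mouse homozygous for a floxed Arid1a allele (Arid1a fl/fl), made immortal with SV40 large T and then given H-Ras V12D. WT cells (Arid1a fl/fl) had received the adenovirus Ad-GFP, and KO cells (Arid1a-/-) had received Ad-Cre, which expresses Cre recombinase. Floxed alleles, SV40 large T and H-Ras V12D are therefore common to WT and KO, and the results describe 1 cell line. H3K27me3 and H3K9me3 were profiled in both genotypes, while Arid1a, Brg1, Ctcf and Rad21 were profiled in WT cells only. Each group was 1 library, so differences between genotypes were not checked by replicates and are given without p-values.

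VE-cadherin, encoded by Cdh5, joins endothelial cells at their adherens junctions, and PECAM-1 (Pecam1) is an adhesion molecule of the same cell contacts. Kdr and Flt1 encode receptors for vascular endothelial growth factor, Tek encodes the angiopoietin receptor TIE2, and Tie1 encodes its partner receptor. ERG, an ETS factor, SOX17 and SOX18, SoxF factors, and GATA2, a zinc finger factor, regulate transcription in endothelial cells. Hepatocytes do not normally use these genes. H3K27me3 is placed by Polycomb repressive complex 2, often at CpG-rich starts of developmental genes, and H3K9me3 is a mark of heterochromatin. Arid1a and Brg1 belong to SWI/SNF, which moves nucleosomes. Ctcf binds a defined DNA motif and stops loops drawn by cohesin, the complex of which Rad21 is a part. Transcription was not measured in these lists, and whether each gene was silent in AB17 cells was not tested here. Nor do the lists hold a readout of the Arid1a deletion, since Arid1a was not profiled in KO cells. The paper reports RNA-seq of WT and KO AB17 cells and names Cdh5 among genes whose transcription it links to compartment switching, called from Hi-C. For genes in switched compartments it adds qRT-PCR in AB17 cells, another hepatocyte line and mouse embryo fibroblasts. It describes ChIP-seq of the active marks H3K4me1 and H3K27ac in AB17 cells. It also reports PCR and Western blotting for the knockout in AB17 cells. These data were not used here.

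The starts of the 4 receptor genes are shown because they run from CpG-rich to CpG-poor, a feature that was read beside H3K27me3 in the results that follow. The sequences are 250 bases before to 50 bases after the transcript start, from RefSeq (GRCm38.p6, the assembly of mm10), written 5′ to 3′ on the gene's strand with each CpG in capitals.
Flt1, chr5:147725962-147726261, minus strand: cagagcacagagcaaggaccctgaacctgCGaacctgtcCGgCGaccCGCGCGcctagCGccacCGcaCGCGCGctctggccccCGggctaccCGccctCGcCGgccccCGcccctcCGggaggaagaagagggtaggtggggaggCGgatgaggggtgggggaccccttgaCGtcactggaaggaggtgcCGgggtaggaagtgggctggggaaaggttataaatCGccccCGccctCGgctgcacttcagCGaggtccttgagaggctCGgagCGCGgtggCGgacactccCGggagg
Kdr, chr5:75978406-75978705, minus strand: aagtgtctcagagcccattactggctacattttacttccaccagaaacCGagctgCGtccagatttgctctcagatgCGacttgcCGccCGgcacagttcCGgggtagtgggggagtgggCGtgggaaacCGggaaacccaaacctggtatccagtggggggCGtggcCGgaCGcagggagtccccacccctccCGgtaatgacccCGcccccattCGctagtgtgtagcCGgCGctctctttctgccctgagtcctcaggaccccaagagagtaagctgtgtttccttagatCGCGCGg
Tie1, chr4:118489800-118490099, minus strand: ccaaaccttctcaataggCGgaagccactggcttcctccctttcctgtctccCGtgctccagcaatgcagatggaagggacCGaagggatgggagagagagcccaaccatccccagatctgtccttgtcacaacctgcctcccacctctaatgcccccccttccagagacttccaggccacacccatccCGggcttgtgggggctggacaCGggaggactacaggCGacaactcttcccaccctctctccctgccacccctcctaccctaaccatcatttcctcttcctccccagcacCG
Tek, chr4:94739039-94739338, plus strand: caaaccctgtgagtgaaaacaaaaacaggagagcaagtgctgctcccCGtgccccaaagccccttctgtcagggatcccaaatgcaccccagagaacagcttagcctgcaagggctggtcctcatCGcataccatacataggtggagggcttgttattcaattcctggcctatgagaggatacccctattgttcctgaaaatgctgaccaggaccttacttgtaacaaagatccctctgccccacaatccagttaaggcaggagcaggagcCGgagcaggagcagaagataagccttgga
Flt1 has 29 CpG in these 300 bases and Kdr has 19, whereas Tie1 has 7 and Tek has 3. The median of all 32851 promoters in the table was 7. An entry was matched for 6 of the 10 genes (Kdr, Tek, Tie1, Flt1, Erg and Gata2) and not for Cdh5, Pecam1, Sox17 and Sox18.

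The deposited lists give each peak as a summit of 1 bp and its −log10 q-value, called strength from here on. It depends on read depth, which is unknown, so it ranks summits within a list, and counts above a common strength in WT and KO do not correct for a difference in depth. Distances are from the outermost annotated start, negative upstream. The lists held between 70408 (Arid1a) and 143835 (WT H3K9me3) summits, and the KO lists were shorter than the WT lists for H3K27me3 (86050 against 109601) and H3K9me3 (134976 against 143835).

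In WT cells, 129 H3K27me3 summits lay in the windows of 8 of the 10 genes, and in KO cells 108 lay in the windows of the same 8 genes. A summit anywhere in the window was listed for 54.2% of all protein-coding genes in WT and 46.3% in KO. Tek and Pecam1 had 0 in both genotypes. Per 100 kb of window, the median of the 10 genes was 6.70 summits in WT and 6.82 in KO, against 1.303 and 0 over all protein-coding genes.

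**Figure D1:**
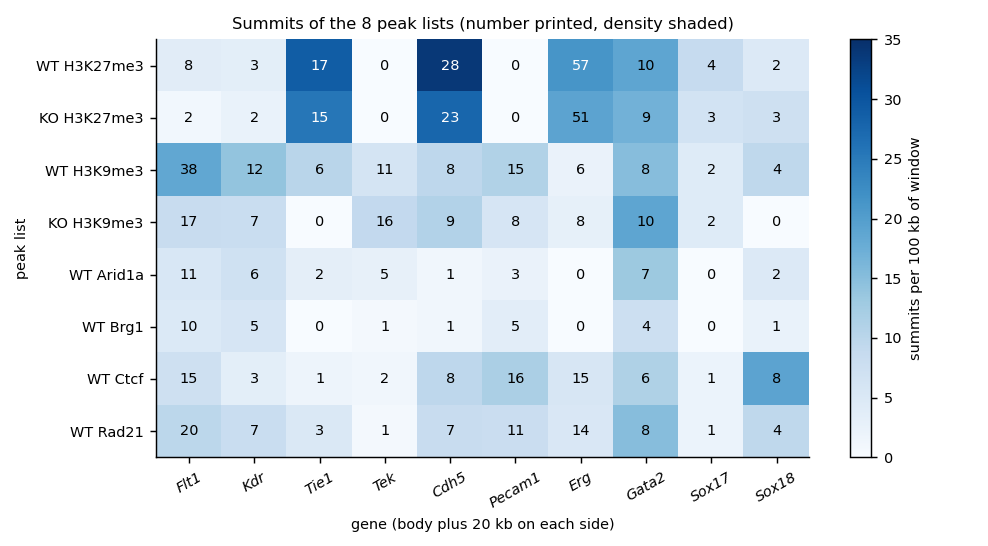
Number of summits (printed) and summits per 100 kb (shading) for the 10 genes (columns, receptors first, then adhesion genes and transcription factors) and the 8 peak lists (rows). The H3K27me3 rows are darkest at Cdh5 (28 in WT, 23 in KO) and Tie1 (17 and 15) and empty at Tek and Pecam1, and the Arid1a and Brg1 cells are empty at Erg and Sox17.

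The density ran from 33.8 summits per 100 kb at Cdh5 in WT, higher than at 96.3% of protein-coding genes, through 28.9 at Tie1, 21.3 at Erg and 18.8 at Gata2. Sox17 had 8.62, Sox18 4.78, Flt1 3.91 and Kdr 3.50 per 100 kb. In KO the order of the upper 4 genes was the same, with 27.7 at Cdh5, 25.5 at Tie1, 19.1 at Erg and 16.9 at Gata2. Density and strength ordered the genes differently. Cdh5 and Tie1, with the densest H3K27me3, had no WT summit above a strength of 7.77, and Sox18, with 2 summits in WT, held the strongest of the 129.

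**Figure D2:**
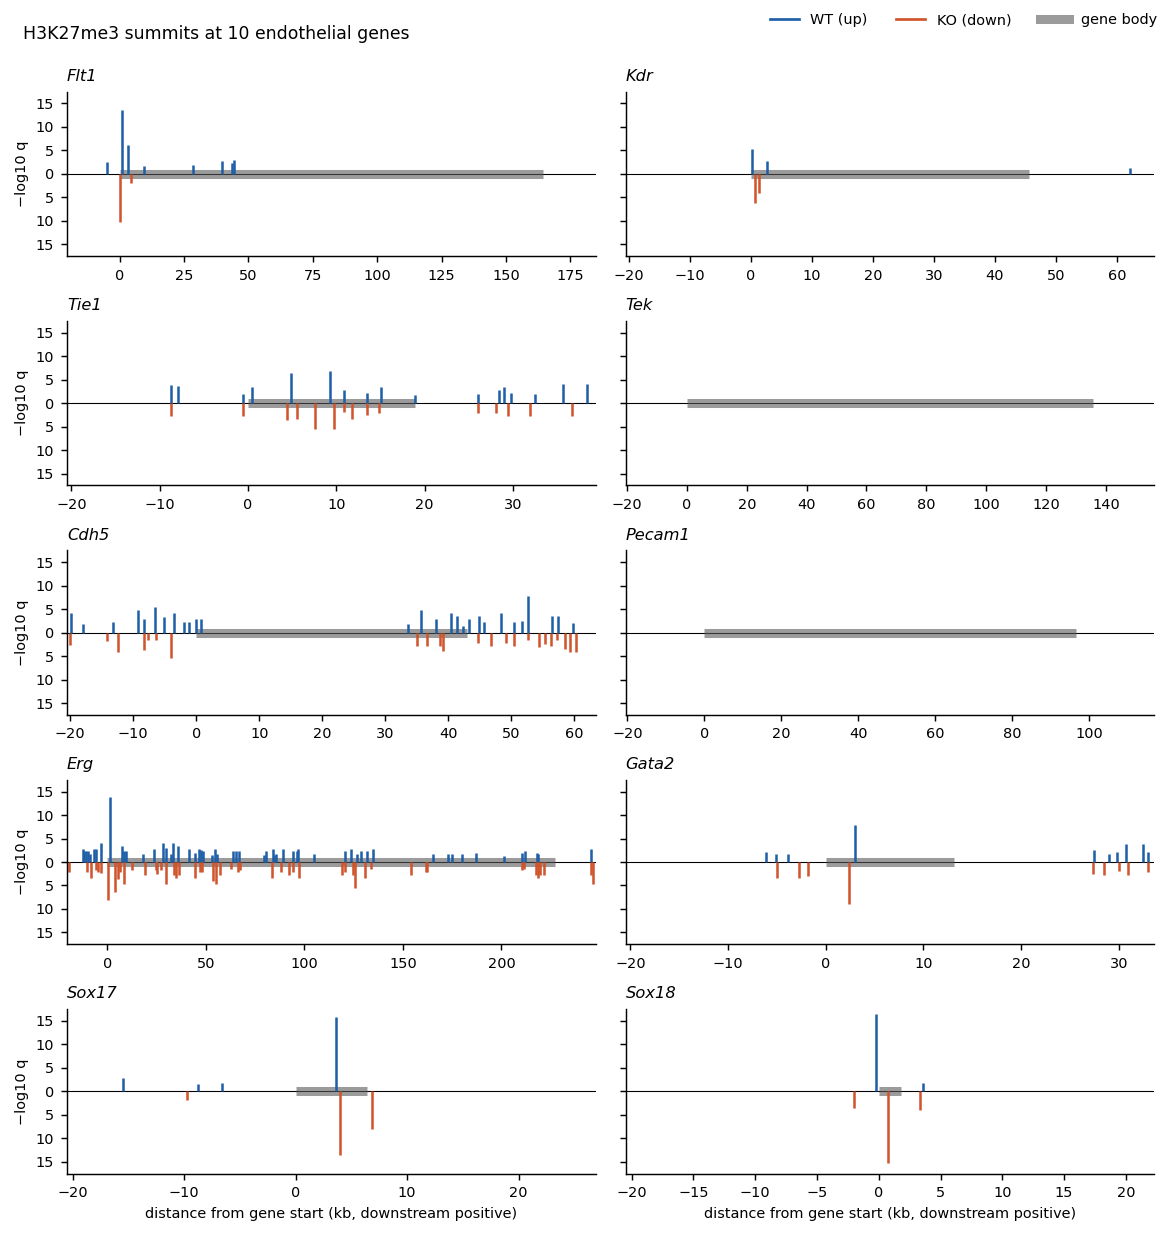
H3K27me3 summits at the 10 genes by distance from the gene start (kb), with the height of each line giving its −log10 q in WT (up) and KO (down), and the gene body as a grey bar. Flt1, Kdr, Sox17, Sox18, Gata2 and Erg carry a summit of strength 5 or more within 5 kb of the start in both genotypes, Cdh5, Tie1 and Erg carry strings of mostly weaker summits, and Tek and Pecam1 carry none.

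Sox18 and Sox17 held the strongest H3K27me3 summits of the 10 genes in each genotype, followed by Erg and Flt1 in WT and by Flt1 and Gata2 in KO. Sox18 (chr2:181669836-181671640, minus strand) had 1 of strength 16.6 at −200 bp in WT and 1 of strength 15.3 at +770 bp, in its exon, in KO. These summits were within the strongest 0.872% of the WT list and 0.755% of the KO list. The rest of the Sox18 window held 1 further summit in WT and 2 in KO, none above a strength of 4.05.

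Sox17 (chr1:4490931-4497354, minus strand) had its strongest summit inside the gene, of strength 16.0 at +3649 bp in WT and 13.6 at +3957 bp in KO. The gene has 8 annotated transcript starts, and the WT summit lay 30 bp and the KO summit 207 bp from one of them. A further KO summit of strength 7.96 lay at +6883 bp, past the gene end, where the WT list had none.

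Erg (chr16:95359169-95586593, minus strand) combined both arrangements. Its strongest summit had a strength of 13.8 at +1088 bp in WT and 7.99 at +135 bp in KO, within the strongest 1.25% and 3.36% of the lists. Besides it, all WT summits had a strength under 5, and 2 KO summits reached it, with 6.30 at +3822 bp and 5.52 at +125714 bp. Of all Erg summits, 48 of 57 in WT and 43 of 51 in KO were in introns of the 227.4 kb gene. The median spacing was 2481 bp in WT and 2666 bp in KO, the widest gap was 30911 bp and 47970 bp, and the median strength of all Erg summits was 2.29 and 2.75.

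Gata2 (chr6:88193891-88207032, plus strand), which blood progenitors also use, had its strongest summit in an intron, of strength 7.99 at +2984 bp in WT and 8.84 at +2341 bp in KO. A string of 6 summits in WT and 5 in KO followed downstream of the gene, starting at +27497 bp and +27352 bp, so that 24513 bp in WT and 25011 bp in KO had no H3K27me3 summit. That string runs into Dnajb8, the neighbouring gene on the plus strand.

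Of the growth factor receptor genes, Flt1 (chr5:147561604-147726011, minus strand) had a summit of strength 13.6 at +844 bp in WT and 10.2 at −46 bp in KO, within the strongest 1.28% and 1.88% of the lists. The remaining 7 Flt1 summits in WT reached +44460 bp, and the KO list had 1 other, at +4324 bp with a strength of 1.88. Kdr (chr5:75932827-75978458, minus strand) had a strength of 5.38 at +259 bp in WT and 6.30 at +750 bp in KO, its strongest summits. The remaining Kdr summits numbered 2 in WT and 1 in KO.

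The angiopoietin receptor genes differed from each other. Tie1 (chr4:118471191-118490061, minus strand) had summits throughout its body and flanks, with the strongest at +9243 bp in WT (6.97) and 2 of equal strength at +9727 and +7563 bp in KO (5.52). Of its 17 WT summits, 13 had a KO summit within 1 kb. At its start the nearest summits were weak, of strength 3.38 at 454 bp in WT and 2.75 at 555 bp in KO. Tek (chr4:94739289-94874976, plus strand) had no H3K27me3 summit in its window, and the nearest to its start lay 1228009 bp away in WT and 1110053 bp away in KO.

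The adhesion genes formed the same contrast. Pecam1 (chr11:106654217-106750628, minus strand) had no H3K27me3 summit, the nearest being 273988 bp from its start in WT and 276116 bp in KO. Cdh5 (chr8:104101625-104144511, plus strand) had 28 in WT and 23 in KO. Of the 28, 11 lay upstream, 2 in exons, 5 in introns and 10 downstream, and of the 23, 7 lay upstream, 3 in exons, 1 in an intron and 12 downstream. All but 2 of the WT summits and 1 of the KO summits had a strength under 5.

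The genotypes differed at the start of Cdh5. In WT, 4 summits lay within 2 kb of it, at −1896 bp (strength 2.29), −1138 bp (2.29), −12 bp (2.84) and +742 bp (2.84). In KO there were 0, and the nearest was at −4034 bp, with a strength of 5.38, the strongest KO summit of the window. This KO summit lay 436 bp from a WT summit of strength 4.15. The start of Cdh5 thus fell inside a WT run of 9 summits spanning 10.01 kb, in which neighbours were at most 3 kb apart, and inside no KO run.

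All 4 WT summits at the Cdh5 start belonged to the weaker part of their list, since 46.7% or more of the WT list was at least as strong as each. All 4 were among the 86050 strongest WT summits, as many as the KO list holds, of which the weakest had a strength of 1.91. Such a cut by rank does not correct for a difference in read depth. At least 1 WT and 0 KO summits within 2 kb of the start were found at 6.14% of protein-coding genes, and at least 4 WT and 0 KO at 0.0593%, a criterion set after the Cdh5 values had been seen. The opposite, at least 1 KO and 0 WT, was found at 2.58%, Gata2 among them. With 1 library per genotype, a difference between genotypes and a difference between libraries cannot be told apart.

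Inside Cdh5, 32833 bp from +742 to +33575 bp had no H3K27me3 summit in WT, and 39091 bp from −4034 to +35057 bp had none in KO. The WT gap held 5 WT and 6 KO H3K9me3 summits, the only Arid1a summit of the window (3.99, at +19430 bp) and the only Brg1 summit (1.502, at +15366 bp). Past the gap, H3K27me3 resumed before the gene end in both genotypes and continued downstream. The longest WT run counted 13 summits over 18.99 kb from +33575 to +52561 bp, where the strongest WT summit lay (7.77), and the longest KO run counted 12 over 15.6 kb from +44642 to +60263 bp. These runs were longer, by number of summits, than 98.7% of all runs in each list. That total counts single summits as runs, 19539 of 40890 in WT and 16080 of 33766 in KO.

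**Figure D3:**
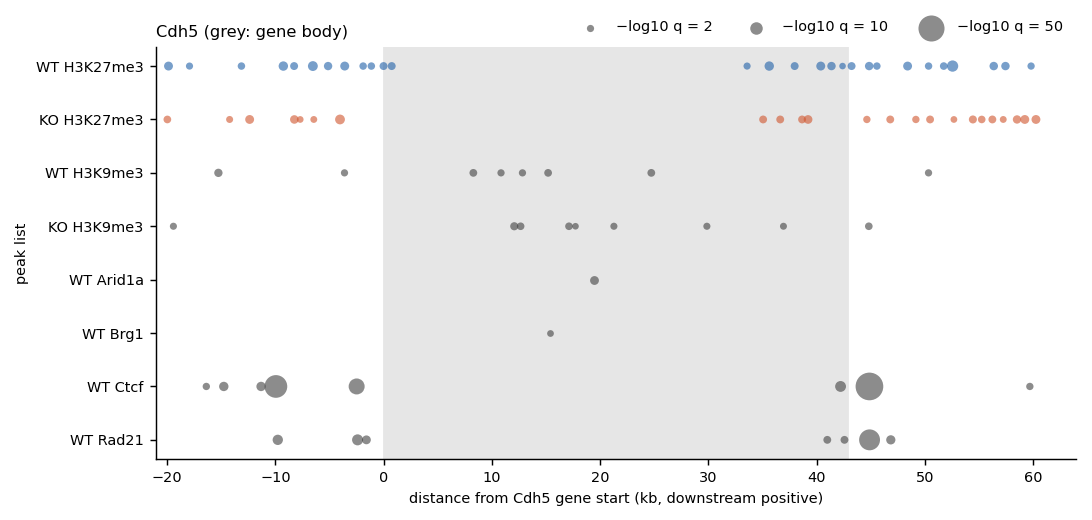
Summits of the 8 peak lists at Cdh5 by distance from its start (kb), with point size growing with −log10 q and the gene body shaded. The 4 WT H3K27me3 summits within 2 kb of the start have no counterpart in the KO lane, H3K9me3 but no H3K27me3 lies between +742 and +33575 bp, and the largest Ctcf and Rad21 points are at +44879 and +44891 bp, past the gene end.

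Within 2 kb of the gene start, 6 of the 10 genes had an H3K27me3 summit in WT (Cdh5, Kdr, Tie1, Flt1, Erg and Sox18), against 23.4% of protein-coding genes. In KO, 6 had one (Kdr, Tie1, Flt1, Erg, Sox18 and Gata2), against 19.8%. The 5 genes with one in both genotypes compare with 17.2%. A summit of strength 5 or more within 5 kb of the start was listed for 7 genes in WT (background 13.8%) and for 7 in KO (11.7%), and 6 genes had one in both (Kdr, Flt1, Erg, Sox17, Sox18 and Gata2, background 10.1%). The counts describe genes selected with earlier results of these lists known and were not tested against chance.

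In 6 of the 8 genes with the mark, the strongest WT and KO summits were between 308 bp (Sox17) and 970 bp (Sox18) apart. At Tie1 the distance was 484 bp or 1680 bp, depending on which of the tied KO summits is taken. At Cdh5 it was 56595 bp. How often the strongest summits lie this close over all protein-coding genes is not given here. Of the 129 WT summits, 77 (59.7%, exact 95% interval 50.7 to 68.2%) had a KO summit within 1 kb, and 54.4% of the whole WT list did. Of the 108 KO summits, 72 (66.7%, 56.9 to 75.4%) had a WT summit within 1 kb, against 68.3% of the whole KO list. The intervals cover counting error only, and neighbouring summits are not independent.

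The number of H3K27me3 summits was lower in KO than in WT at 7 genes, higher at 1 (Sox18, 3 against 2) and equal at 0 at Tek and Pecam1. Over all protein-coding genes, 37.9% had fewer in KO and 11.9% more. The ratio of KO to WT was 0.837 in the 10 windows (exact 95% interval 0.642 to 1.09), beside 0.785 for the whole lists and 0.782 for the windows of all protein-coding genes. When the WT list was limited to its 86050 strongest summits, the WT sum became 103 and the ratio 1.05, so the direction depended on the lengths of the lists. At that length 3 genes had fewer in KO (Cdh5, Tie1 and Flt1), 4 had more (Erg, Sox17, Sox18 and Gata2) and 3 were equal. The whole lists are then equally long by construction. The shares of all protein-coding genes at that length are not given here, so these counts have no background beside them. Summits of strength 5 or more numbered 11 in WT and 12 in KO. For Flt1 the counts were 8 in WT, 7 at equal list length, and 2 in KO.

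Summits of strength 5 or more differed from the weaker ones in distance from the start and in CpG content, by their medians. The median distance from the start was 3.09 kb for the 11 WT summits of strength 5 or more and 34.6 kb for the 118 weaker ones. In 500 bp around the summit, the median number of CpG was 21 for the strong and 6 for the weaker WT summits, and 14.5 and 5.5 in KO. Of the 118 weaker WT summits, 56 lay at Erg and 26 at Cdh5, so these genes weigh most in the medians of the weaker summits. The distance a summit can have also depends on the length of its gene, and the contrast was not tested within genes. The strongest Flt1 and Erg summits held 30 and 37 CpG in WT. The strong summits were not all of this kind, since 5 of 11 in WT (2 at Cdh5, 2 at Tie1 and 1 at Flt1) and 4 of 12 in KO (at Cdh5, Tie1, Erg and Sox17) held 7 CpG or fewer. In WT 3 of the 11 and in KO 4 of the 12 lay more than 5 kb from the start. In 1 kb around the gene start there were 100 CpG at Flt1, 88 at Gata2, 75 at Sox18, 60 at Kdr, 52 at Sox17, 25 at Erg, 21 at Tie1, 19 at Tek, 18 at Cdh5 and 16 at Pecam1, with a median of 41 over all protein-coding genes.

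**Figure D4:**
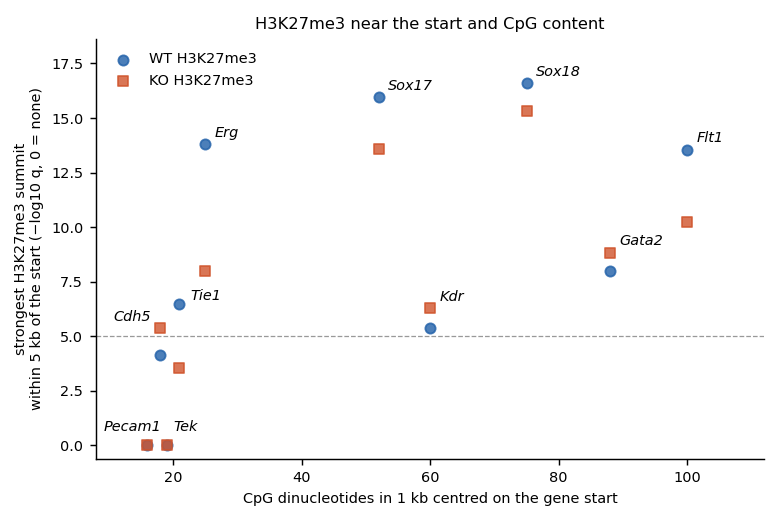
Strongest H3K27me3 summit within 5 kb of the gene start (−log10 q, 0 for none) against the number of CpG in 1 kb around the start, for WT (circles) and KO (squares). Strengths rank genes within a genotype only. The 5 genes with 52 or more CpG are above the dashed line at 5 in both genotypes, Erg is too with 25 CpG, and Tek and Pecam1 are at 0 with 19 and 16.

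All 5 genes with 52 or more CpG had a summit of strength 5 or more within 5 kb in both genotypes. Of the 5 genes with 25 or fewer, this held for Erg in both genotypes, for Tie1 in WT and for Cdh5 in KO. The class depends on the stretch counted. In the 300 bases of the RefSeq promoter at its outermost start, Erg had 16 CpG, against a median of 7 over all promoters. Across all protein-coding genes the relation was not a steady one. Such a summit was listed in WT for 9.92% of genes with a ratio of observed to expected CpG under 0.4, for 21.4% of those between 0.4 and 0.6 and for 14.9% of those at 0.6 or above. This ratio is another measure than the CpG count. By it Erg, at 0.448, was in the middle class, and Pecam1, Cdh5, Tek and Tie1 were under 0.4. The genes with 52 or more CpG were above 0.6.

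H3K9me3 lay in all 10 windows in WT, with 110 summits, and in 8 in KO, with 77. A summit in the window was listed for 86.8% of protein-coding genes in WT and 82.0% in KO. The summits were weak, none being above 5.56 in WT or 5.30 in KO, and 60.0% in WT were intronic. Flt1 had the largest number, 38 in WT and 17 in KO, and Tie1 (6) and Sox18 (4) had WT summits and 0 in KO. Tek, without H3K27me3, had 11 in WT and 16 in KO, and Pecam1 had 15 and 8.

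Within 2 kb of the start, H3K9me3 was listed at 4 genes in WT (Kdr, Pecam1, Flt1 and Gata2), against 38.7% of protein-coding genes, and at 3 in KO (Pecam1, Flt1 and Gata2), against 14.0%. The summit near the Kdr start, of strength 5.51 at +947 bp in WT, lay 688 bp from the WT and 197 bp from the KO H3K27me3 summit there, and the nearest KO H3K9me3 summit was 6189 bp from it. The KO count was lower at 5 genes, higher at 4 and equal at Sox17, against 60.0% lower and 25.9% higher over all protein-coding genes. The KO to WT ratio was 0.700 (0.516 to 0.945), beside 0.938 for the whole lists and 0.651 for the windows of all protein-coding genes. Flt1, with 38 summits in WT and 17 in KO, weighs most in this ratio. Its interval covers counting error only, and neighbouring summits are not independent. WT H3K9me3 summits had a KO partner within 1 kb in 28.2% of cases (20.02 to 37.6%), beside 31.1% of the whole list.

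Arid1a gave 37 summits in the windows of 8 genes (73.7% of protein-coding genes had one), and Brg1 gave 27 in the windows of 7 (74.8%). An Arid1a summit within 2 kb of the start was listed at Kdr, Flt1 and Gata2, 3 genes, against 35.2% of all protein-coding genes. A Brg1 summit was listed there at 2, Kdr and Flt1, against 39.6%. All of them had strengths under 4. Of the 129 WT H3K27me3 summits, 3.10% had an Arid1a summit and 1.55% a Brg1 summit within 1 kb, beside 3.03% and 2.96% of the whole H3K27me3 list.

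Erg and Sox17 had no summit of Arid1a or Brg1 in their windows, as had 18.0% of protein-coding genes. Among the 1348 genes with windows of 200 kb or more, as Erg has, 6.97% had none. The nearest Arid1a summit to the Erg start was 56110 bp away and the nearest Brg1 summit 71056 bp away, and for Sox17 the distances were 63127 bp and 74221 bp. Over the whole of chromosomes 16 and 1, Arid1a had 2.14 and 2.61 summits per 100 kb.

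The strongest Arid1a and Brg1 summits of the 10 windows lay together in an intron of Flt1. The Arid1a summit at +114498 bp had a strength of 8.29 and the Brg1 summit at +114457 bp a strength of 9.16, within the strongest 0.210% and 0.218% of their lists. A Rad21 summit (5.93, at +114428 bp) and H3K9me3 summits of WT (4.90, at +114478 bp) and KO (4.41, at +114430 bp) lay at the same place, and no Ctcf or H3K27me3 summit was listed within 1 kb. Whether the 5 libraries share a background at this place was not tested. At Sox18, an Arid1a summit of strength 7.17 lay at −8895 bp, near the start of Tcea2.

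Ctcf gave 75 and Rad21 gave 76 summits, in all 10 windows, and a summit in the window was listed for 84.9% and 84.3% of protein-coding genes. Within 2 kb of the start, Ctcf was listed at 4 genes (Kdr, Erg, Sox18 and Gata2), against 42.5% of protein-coding genes, and Rad21 at 4 (Cdh5, Kdr, Flt1 and Gata2), against 50.6%. Of the Rad21 summits, 59.2% (47.3 to 70.4%) had a Ctcf summit within 1 kb, beside 52.0% of the whole Rad21 list. Ctcf summits of strength 20 or more numbered 12, at 7 genes (Cdh5, Pecam1, Flt1, Erg, Sox17, Sox18 and Gata2), and all 12 had Rad21 between 6 and 176 bp away, with a median of 26.5 bp. An Arid1a summit lay within 1 kb of 2 of them and a Brg1 summit within 1 kb of 1. Of the whole Ctcf list, of any strength, 55.7% had a Rad21 summit within 1 kb. The shares for all Ctcf summits of strength 20 or more are not given here. Whether the 12 sites differ from other strong Ctcf sites was therefore not tested.

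The strongest was upstream of Gata2, at −4223 bp, with a Ctcf strength of 100.5 and a Rad21 strength of 55.3. Next came Sox18 at −7293 bp (Ctcf 86.4, Rad21 39.5). Cdh5 had a pair of strong Ctcf sites, 1 on each side of the gene. The upstream site was at −9956 bp, with a Ctcf strength of 37.5 and a Rad21 strength of 6.15, and the downstream site was at +44879 bp, with 56.8 and 31.5. Pecam1 had 54.0 and 36.5 at +102124 and +8002 bp, Erg had 49.8 at +240544 bp and Flt1 had 46.4 at +141836 bp. Kdr, Tek and Tie1 had none of strength 20 or more.

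The core of the Ctcf motif, searched as CCNNNAGNNGGC in the 50 bp on either side of a summit and on both strands, was found at 8 of these 12 sites. It was present at 41.9% of all Ctcf summits of strength 20 or more, at 17.7% of all Ctcf summits, and at 1.93% of windows of the same length moved by 2 kb. The strongest site with a match is shown for each of 5 genes, as 40 bases of GRCm38 written 5′ to 3′ on the strand of the match, with the match in capitals.
Gata2, chr6:88189618-88189657, plus strand: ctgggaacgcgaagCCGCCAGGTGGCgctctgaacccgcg
Cdh5, chr8:104146477-104146516, plus strand: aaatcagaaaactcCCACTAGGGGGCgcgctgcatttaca
Pecam1, chr11:106648457-106648496, plus strand: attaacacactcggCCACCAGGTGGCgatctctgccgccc
Erg, chr16:95346066-95346105, minus strand: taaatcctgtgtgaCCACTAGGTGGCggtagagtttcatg
Flt1, chr5:147584115-147584154, plus strand: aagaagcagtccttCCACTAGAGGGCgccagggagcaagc
The Cdh5 match lies downstream of the gene, centred 7 bp from the Ctcf summit, and the Gata2 match is centred 30 bp from its summit. At Sox18 no match was found around the strongest Ctcf summit.

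Other genes of the endothelial lineage, hepatocyte genes, genes of other liver cells and genes used in every cell were set beside the 10 genes. Of 30 other endothelial genes, 21 had H3K27me3 in the window in WT and 21 in KO, with medians of 6.82 and 4.81 summits per 100 kb. The highest was Vwf (von Willebrand factor) in WT, with 38.9 per 100 kb and 70 summits, of which 3 were within 2 kb of the start, whereas the KO list had 60 and 0 there. At the start, 14 of the 30 had a summit in WT and 9 in KO. A summit of strength 5 or more within 5 kb of the start was listed for 8 in WT and 6 in KO. Of the 10 genes, 7 had one in each genotype. The KO to WT ratio was 0.815 for these 30 genes, beside 0.837 for the 10 genes.

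Hepatocyte genes carried H3K27me3 in these cells too. Of the 16 hepatocyte genes, 12 had H3K27me3 in the window in WT and 9 in KO, with medians of 5.75 and 1.63 per 100 kb, and 7 had it at the start in WT. A summit of strength 5 or more within 5 kb of the start was listed for 6 in WT and 4 in KO. For genes of other liver cells the numbers were 2 and 3 of 11. Fgb (fibrinogen beta chain) was the highest, with 38.2 per 100 kb, and Ttr, Nr1h4, Krt8 and Krt18 had 0 in WT. The KO to WT ratio of the 16 genes was 0.814. Of 11 genes of other liver cells, 8 had it in WT, with a median of 6.22, and the ratio was 0.531 (64 summits in WT and 34 in KO). Of 6 genes used in every cell, 1 had it (Eef2, 3 summits in WT and 1 in KO), and 5 had Arid1a and Brg1 within 2 kb of the start. The density of H3K27me3 therefore did not check the hepatocyte label of the cells, and the mark was not particular to endothelial genes. Nor was H3K9me3 in WT, with a median of 9.92 per 100 kb for the 10 genes and 9.55 for other endothelial genes. It was 5.70 for hepatocyte genes, 14.1 for other liver cells and 14.3 for genes used in every cell. In KO these medians were 7.02, 3.87, 3.78, 4.77 and 2.66, in the same order.

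**Figure D5:**
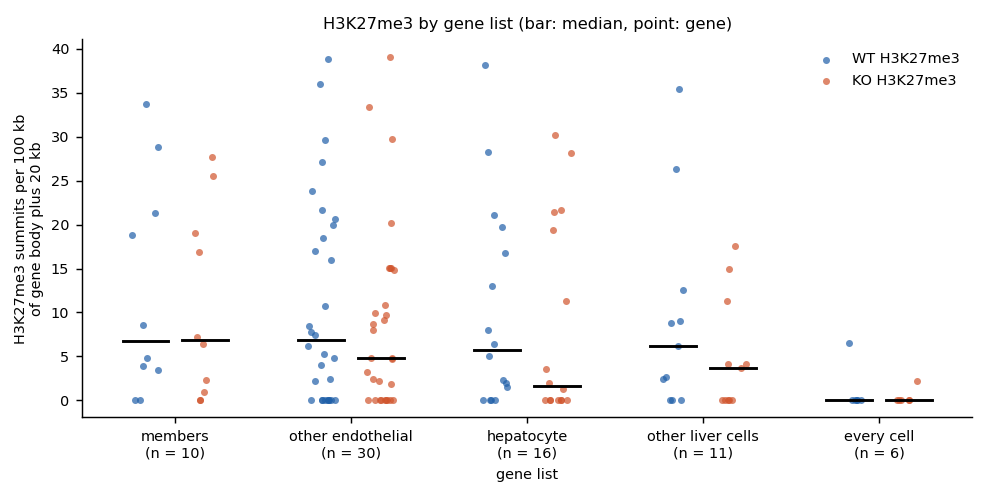
H3K27me3 summits per 100 kb of gene body plus 20 kb for each gene (points) in WT and KO, by gene list, with the median as a bar. The medians in WT are 6.70 for the 10 genes, 6.82 for other endothelial genes, 5.75 for hepatocyte genes, 6.22 for other liver cells and 0 for genes used in every cell.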

How the data were processed

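ChIP-seq libraries from AB17 hepatocytes were used. The authors mapped the reads to mm10 (bowtie2), discarded reads of low quality (SAMtools) and duplicates (Picard), and ran MACS2 with its default settings, taking inputs as background, as their methods state. Versions were not given in the sources used here. Each deposited list holds summits of 1 bp, and the authors' peak caller gave each a −log10 q-value. The column was read as such from its values, which have no header and do not fall under 1.301, the −log10 of 0.05. A deeper library yields more and stronger summits, read depth is unknown from the lists, and calling broad marks as narrow peaks splits a domain into several summits. The 2 input samples, 1 per genotype, entered only through the peak calling.

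Genes were protein-coding entries of GENCODE vM21 on the autosomes and sex chromosomes, each taken from its outermost start, and positions are 1-based. Partners were summits within 1 kb, and runs joined summits at most 3 kb apart. Intervals for shares and ratios were exact (Clopper-Pearson, 95%) and cover counting error only. Counts, strengths and distances were computed with Python 3.11.15, numpy 2.4.6, scipy 1.17.1, pandas 2.3.3 and pysam 0.24.0, and the counting was tested on simulated data. Samples were grouped by genotype and antibody from their titles. With 1 library per group, no test was run. Alternatives were other windows, start distances, partner distances and run gaps, summits of strength 5 or more only, and lists of equal length. The 10 genes were all named. Of the other lists a gene was named as the highest of its list or as an exception to its count. The genes and lists were chosen with earlier results of these data known.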

Additional observations from a re-analysis of the deposited data

How the results depend on the processing

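No paired analysis was possible because each group was 1 library without replicate numbers, and for the same reason no library could be left out in turn. Of 84 recomputed values for 24 results, 45 stayed within 1.5 times the reported count, or within the interval for shares and ratios. With 50 kb on each side the windows held 209 WT and 176 KO H3K27me3 summits, 62 Arid1a, 58 Brg1, 122 Ctcf and 118 Rad21 summits, and with 5 kb they held 17 Brg1, 44 Ctcf and 45 Rad21 summits. Counting only strengths of 5 or more left 11 WT and 12 KO H3K27me3, 2 WT and 2 KO H3K9me3, 2 Arid1a, 2 Brg1, 30 Ctcf and 25 Rad21 summits, and KO to WT ratios of 1.09 for H3K27me3 and 1 for H3K9me3. The H3K27me3 ratio also passed 1 at equal list length, where it was 1.05 (0.793 to 1.39), because the weakest WT summits were left out.

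A partner within 500 bp was found for 40.3% of WT and 44.4% of KO H3K27me3 summits and 18.2% of WT H3K9me3 summits, and within 3 kb for 82.9%, 95.4% and 50.9%, and for 71.1% of Rad21 summits with Ctcf. At strength 5 or more in both lists, 88% of Rad21 summits had a Ctcf partner and 0% of the 2 WT H3K9me3 summits had a KO partner. With strength 5 or more, a summit within 2 kb of the start was left at 1 gene for WT H3K9me3, 0 for KO H3K9me3, 0 for Arid1a, 0 for Brg1, 1 for Ctcf and 2 for Rad21, and within 1 kb a Brg1 summit was left at 1 gene. The start lay inside an H3K27me3 run at 2 genes in WT and 1 in KO, at 1 and 0 with gaps up to 1 kb, and at 4 and 5 with gaps up to 5 kb, so the difference between genotypes in that count turned with the gap allowed.

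Libraries of 1 per group and unknown depth limit what the lists show. A start without a summit is a start below the calling threshold, which the lists do not tell from an unmarked start, and counts above a common strength in WT and KO do not correct for a difference in depth.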
